A study of Homo sapiens with 59 samples.

Results

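The genes described here are 40 genes of glycolysis and of the response to low oxygen, listed by name. They run from glucose transporters through the enzymes that turn glucose into lactate to the hypoxia factor HIF1A, its regulators and its best known targets. The array carried 59 probes for 38 of the 40 genes, and a probe was kept when its detection p was under 0.01 on at least 5 of the 59 arrays. This kept 47 probes and 37 genes, of 11515 genes kept in all. SLC16A1 and SLC16A3, carriers of lactate across the plasma membrane, had no annotated probe and were not analysed here. EGLN3, a prolyl hydroxylase, had a probe that was detected on 1 array and was not kept. A gene with several kept probes, as 8 of the 37 had, was represented by the probe of highest mean signal.

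RNA of THP-1 cells, a line grown from a human monocytic leukaemia, was hybridised to Illumina bead arrays. The cells had been turned into macrophage-like cells with 10 ng/ml of the phorbol ester PMA for 40 h and then kept for 2 h in medium without PMA, in all groups alike. They next received either 1 µM of the antidiabetic drug rosiglitazone (RSG), which binds and activates PPARG, or its solvent DMSO, and were collected 0.5, 1.5, 3, 8 or 12 h later. There were 6 arrays in each of the 10 groups, save for 5 in the RSG group of 1.5 h. The whole study used a single line, and cells were seeded and treated sample by sample according to the study's methods. Neither the methods nor the labels say whether replicates came from separate PMA treatments, so p-values measure the spread between these arrays, which may be technical.

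Glycolysis converts glucose to pyruvate in the cytosol, and lactate dehydrogenase turns pyruvate into lactate when respiration does not use it. Hexokinases trap glucose in the cell, phosphofructokinase commits it to the pathway, and fructose 2,6-bisphosphate, made by the PFKFB enzymes, is the strongest activator of phosphofructokinase. When oxygen is plentiful, prolyl hydroxylases such as EGLN1 mark HIF-1α for destruction. When it is scarce, HIF-1α accumulates and raises transcription of nearly every glycolytic gene as well as of genes for blood vessel growth, mitophagy and collagen processing. Macrophages activated by inflammatory signals use the same factor and depend strongly on glycolysis. HIF-1 binds DNA at a short core, ACGTG or GCGTG, called the hypoxia response element.

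That core was looked for on both strands in RefSeq promoter windows of the build GRCh38.p14, each running from 250 bases before a transcription start to 50 bases after it. Windows of 34 of the 40 genes were used, without NDRG1, BNIP3L, VEGFA, SLC2A3, PFKFB2 and SLC16A1. Of the 34 genes, 30 (88.2%) had the core in at least 1 window, against 68.4% of tested genes and 52.4% of all genes in the table. A rule that left out 1 chromosome was applied to the members and not to the other shares. The members had more windows per gene, so their windows were also counted singly. Counted by window it stood in 42 of 63, or 66.7%, against 59% of the 13909 windows of all tested genes in the table and 48.4% of all 35116 windows. A match is only a run of letters. CACGTG reads as the core on both strands and was counted once. The 250 bases before a start are shown for 4 members whose levels are described below, written 5′ to 3′ with the core in capitals. LDHA rose with time, PFKFB3 and ANKRD37 fell, and PFKP was lower with RSG. Where a gene had several starts, the one with the most matches to ACGTG was shown. The LDHA window is chr11:18394313-18394562, that of PFKFB3 chr10:6202682-6202931, that of ANKRD37 chr4:185396591-185396840 and that of PFKP chr10:3068939-3069188, all on the plus strand.
LDHA: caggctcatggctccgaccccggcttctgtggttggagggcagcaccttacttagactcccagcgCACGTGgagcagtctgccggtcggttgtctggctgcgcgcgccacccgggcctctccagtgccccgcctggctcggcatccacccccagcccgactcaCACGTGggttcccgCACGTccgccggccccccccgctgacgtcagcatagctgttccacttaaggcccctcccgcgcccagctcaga
PFKFB3: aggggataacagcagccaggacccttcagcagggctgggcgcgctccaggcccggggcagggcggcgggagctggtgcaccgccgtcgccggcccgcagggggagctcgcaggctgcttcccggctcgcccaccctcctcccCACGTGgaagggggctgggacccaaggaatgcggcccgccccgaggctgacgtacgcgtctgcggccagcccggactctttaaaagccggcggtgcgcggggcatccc
ANKRD37: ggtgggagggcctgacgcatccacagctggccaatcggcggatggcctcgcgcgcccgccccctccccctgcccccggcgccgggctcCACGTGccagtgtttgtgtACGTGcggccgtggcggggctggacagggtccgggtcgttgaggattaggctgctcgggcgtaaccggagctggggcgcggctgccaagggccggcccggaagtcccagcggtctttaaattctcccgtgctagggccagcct
PFKP: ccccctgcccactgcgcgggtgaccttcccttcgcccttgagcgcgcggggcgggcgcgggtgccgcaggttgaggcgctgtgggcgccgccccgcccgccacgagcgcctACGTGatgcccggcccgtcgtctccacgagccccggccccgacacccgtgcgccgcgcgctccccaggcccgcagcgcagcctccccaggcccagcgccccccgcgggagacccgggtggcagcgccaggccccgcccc
The LDHA window held 3 matches, which began at positions -185, -87 and -73 from the start. PFKFB3 had 1 match at -108, ANKRD37 had 2 at -162 and -143, and PFKP had 1 at -139. The starts were picked by their matches, so a match in each of the 4 windows cannot be set against the directions of change.

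The mean raw signal ran from 318 to 1396 over the 59 arrays, and 12182 to 13937 probes were detected per array. Of 10 macrophage markers, 9 were kept, and MARCO was not. Their mean log2 level was 11.54 to 12 on 54 of the arrays. No T cell marker of 3 was kept, but 2 of 3 B cell, 1 of 4 epithelial and 1 of 3 fibroblast markers were. On the same 54 arrays these had mean log2 levels of 5.1 to 5.6, 4.5 to 5.7 and 4.5 to 5.5. The other 5 arrays stood apart, with a median correlation to the rest of 0.895 to 0.931 against 0.959 to 0.986. One was the first RSG replicate of 8 h, and the rest, all of 12 h, were replicates 4 and 6 of DMSO and 2 and 5 of RSG. On them the mean log2 level of 6 mature dendritic cell markers was 10.49 to 11.29, against 5.45 to 6.15 on the 54. Counts of calls are therefore given with all 59 arrays and with 54, and values for single genes come from 54 unless stated. These 5 arrays were set aside after their values had been seen. In bulk RNA, fewer cells with a transcript and less of it per cell cannot be told apart.

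RSG against DMSO was compared at each time to see whether the PPARG ligand moved these genes. Of the 37 members 2 passed the test, both lower. PFKP, the platelet-type phosphofructokinase, was lower with RSG at 8 and 12 h once the 5 arrays apart were left out, and SLC2A3, the high-affinity glucose transporter GLUT3, was lower at 12 h. The other 35 members did not pass the test at any time in either fit. A gene is called here when limma's moderated test gave an adjusted p under 0.05, with Benjamini-Hochberg adjustment over all 11515 genes of the comparison.

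With all 59 arrays no member was called at 0.5, 1.5, 3, 8 or 12 h, where 0, 0, 0, 11 and 3 genes of the whole array were called, the last 2 being 0.0955% and 0.0261% of genes. Without adjustment, 0, 0, 0, 2 and 1 members had a p under 0.05. With 54 arrays the array-wide shares were 0%, 0.0521%, 0%, 1.15% and 1.82%, and 0, 0, 0, 1 and 2 of 37 members were called. The called members were all lower with RSG, as were 0.356% and 0.66% of all genes at 8 and 12 h. The unadjusted counts were then 0, 1, 0, 5 and 5. The median log2 difference over the 37 members was -0.04 at 8 h and -0.10 at 12 h, beside -0.01 and -0.02 over all genes.

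PFKP at 8 h had log2 intensities of 10.50 to 10.67 with a median of 10.58 on the 6 DMSO arrays. On the RSG arrays that did not stand apart it had 9.91, 10.01, 10.04, 10.17 and 10.18. All 5 lay below every DMSO array. The difference was -0.52 on the log2 scale (SE 0.09, 95% interval -0.70 to -0.34), a level 1.43-fold lower, with an adjusted p of 1.2e-04. At 12 h the DMSO arrays had 10.44, 10.48, 10.67 and 11.04, and the RSG arrays 9.89, 10.07, 10.09 and 10.16, again with no overlap. The difference was -0.60 (SE 0.10), or 1.52-fold, with an adjusted p of 1.16e-04. Every fit that left out 1 more array kept both calls, 11 at 8 h and 8 at 12 h, with differences of -0.55 to -0.48 and -0.68 to -0.48.

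Before 8 h PFKP did not separate the treatments. Its differences at 0.5, 1.5 and 3 h were 0.00, 0.06 and 0.00, each with a standard error of at most 0.09. The interaction of treatment with time passed for PFKP with 54 arrays (adjusted p = 4.36e-04), where 0.399% of all genes did, and it passed for no other member. In DMSO its level at 12 h stood 0.10 above that at 0.5 h, and in RSG 0.50 below. With all 59 arrays the differences at 8 and 12 h were -0.80 (adjusted p = 0.82) and -0.32 (adjusted p = 1.00). The arrays apart, of both treatments, had values of 7.76 to 8.38.

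**Figure D1:**
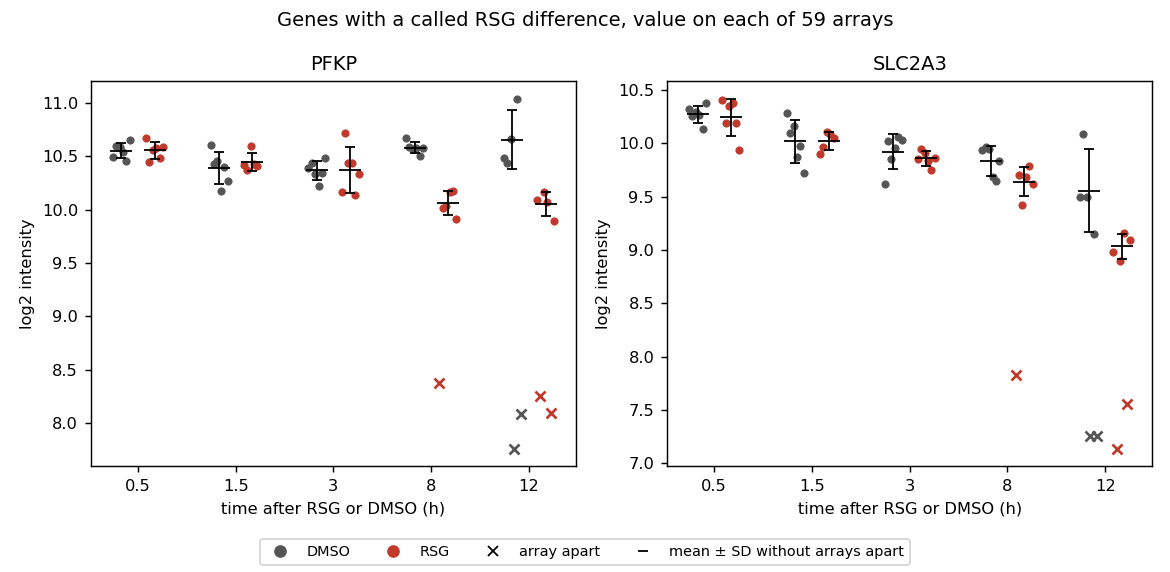
Log2 intensity (y axis) of PFKP and SLC2A3 on each of the 59 arrays by hours after treatment (x axis), DMSO in grey and RSG in red. Crosses are the 5 arrays apart, and bars are the mean ± SD of the other arrays. PFKP with RSG lies below DMSO at 8 and 12 h, and the crosses of both treatments lie far below both.

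SLC2A3 had 9.15, 9.50, 9.50 and 10.09 in DMSO and 8.90, 8.98, 9.09 and 9.16 in RSG at 12 h on the arrays that did not stand apart. The lowest DMSO array overlapped the RSG range, and replicate 2 lay well above the other DMSO arrays. The difference was -0.52 (SE 0.12, adjusted p = 0.0103), a level 1.44-fold lower. With all 59 arrays it was -0.32 (adjusted p = 1.00). The call was lost without DMSO 12 h replicate 2 (-0.35, adjusted p = 0.212) and without RSG 12 h replicate 3 (-0.48, adjusted p = 0.0566). At 8 h the difference was -0.20 (adjusted p = 0.82). When only the 8 arrays of the 12 h comparison entered the fit, neither SLC2A3 (adjusted p = 0.421) nor PFKP (adjusted p = 0.164) passed.

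Among members that missed the threshold, ADM, which encodes the vessel-dilating peptide adrenomedullin, had lower values with RSG at 8 and 12 h. Its DMSO arrays at 8 h spanned 10.54 to 10.69 and its RSG arrays 10.20 to 10.49. At 12 h they spanned 10.21 to 10.57 and 9.88 to 10.20. The differences were -0.26 (adjusted p = 0.71) and -0.33 (adjusted p = 0.37). KDM3A, a histone demethylase that HIF-1 induces, had -0.39 at 12 h (adjusted p = 0.41) and -0.01 at 8 h. NDRG1, a stress-inducible gene and a common marker of hypoxia, had -0.35 at 8 h (adjusted p = 0.51).

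The precision of the RSG difference at 12 h varied between genes that were not called. The 95% interval of the difference with 54 arrays was -0.21 to 0.20 for LDHA, -0.25 to 0.16 for the triosephosphate isomerase TPI1, -0.10 to 0.20 for the phosphoglycerate kinase PGK1 and -0.27 to 0.12 for SLC2A1, the basal glucose transporter GLUT1. It was wider for HK2, the inducible hexokinase, at -0.58 to 0.41, and for HIF1A at -0.65 to 0.15. Besides KDM3A and ADM above, larger differences that missed the threshold included that of the pyruvate kinase PKM (-0.35, adjusted p = 0.33). Others were those of the hexokinase HK3 (0.27, adjusted p = 0.68) and the aldolase ALDOA (0.24, adjusted p = 0.62). The mitophagy receptor BNIP3L, also not called, stood further below DMSO with RSG than PKM did. On the arrays that did not stand apart it had 5.20, 5.75, 5.85 and 6.13 in DMSO at 12 h. With RSG it had 4.92, 5.11, 5.32 and 5.39, so the ranges overlapped. BNIP3L was not detected on all arrays. HK2, PFKFB4 and VEGFA are the members that the study placed near PPARG and RXR binding in this line. Its binding data came from cells with another PMA dose and schedule and a shorter RSG treatment, and nearness was by distance alone. Their differences at 12 h were -0.08, -0.18 and 0.05, with adjusted p of 0.97, 0.71 and 0.97.

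**Figure D2:**
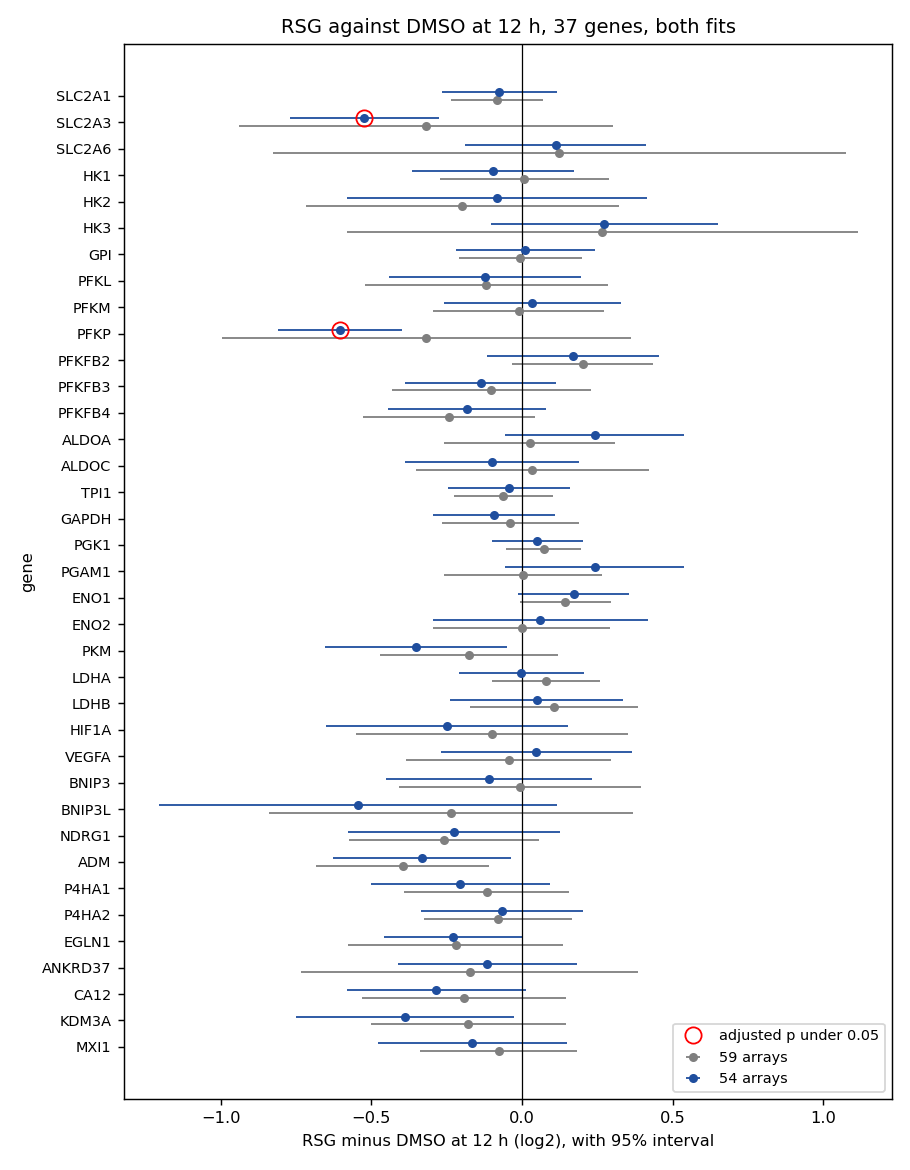
RSG minus DMSO at 12 h on the log2 scale (x axis) with its 95% interval for each of the 37 genes (y axis), in the fit of 59 arrays (grey) and of 54 (blue). Red rings mark the 2 calls, PFKP and SLC2A3, and the other 35 intervals of 54 arrays centre between -0.54 and 0.27.

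DMSO arrays of 1.5, 3, 8 and 12 h were each compared with the same 6 DMSO arrays of 0.5 h, to see how these genes moved in the vehicle after PMA was withdrawn. With 54 arrays they split in 2 directions. NDRG1, VEGFA, PFKFB3, SLC2A3, ADM and the mitophagy receptor BNIP3L fell, and LDHA, TPI1, the hexokinase HK1, the prolyl hydroxylase EGLN1, ALDOC and P4HA2 rose, each of the 12 at both 8 and 12 h. With 59 arrays 7 of these 12 were called at both times, the exceptions being SLC2A3, ADM, HK1, EGLN1 and ALDOC. With 54 arrays 2 members were called at 1.5 h, both lower, 11 at 3 h, 16 at 8 h and 17 at 12 h. The rises numbered 0, 4, 7 and 8, where 2.9%, 12%, 21.2% and 21.3% of all genes rose, and the falls 2, 7, 9 and 9, where 3%, 9.08%, 15.3% and 16.1% fell. As shares of the 37 members these are 5.41%, 29.7%, 43.2% and 45.9%, beside 5.91%, 21.1%, 36.5% and 37.4% of all genes. With 59 arrays the member counts were 0, 6, 8 and 13, and the array-wide shares 0.894%, 9.27%, 24.6% and 31.7%. The 4 comparisons share their 0.5 h arrays, and time after treatment and time since PMA withdrawal cannot be told apart.

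Of the 37 genes, 24 were called at some time with 54 arrays and 13 at none, or 64.9% called beside 54.4% of all genes. All 6 calls at 3 h and all 8 at 8 h with 59 arrays were among those of 54 with the same direction, and 11 of the 13 at 12 h. At 1.5, 3 and 8 h the same DMSO arrays entered both fits, so the differences were equal and only the estimated spread changed. At 12 h, where 2 DMSO arrays stood apart, the differences themselves moved. With 59 arrays SLC2A3 was 1.48 lower at 12 h, and the differences of HK1, ALDOC, HIF1A and PFKFB4 were 0.25, 0.01, -0.20 and -0.10, none of these 4 called.

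**Figure D3:**
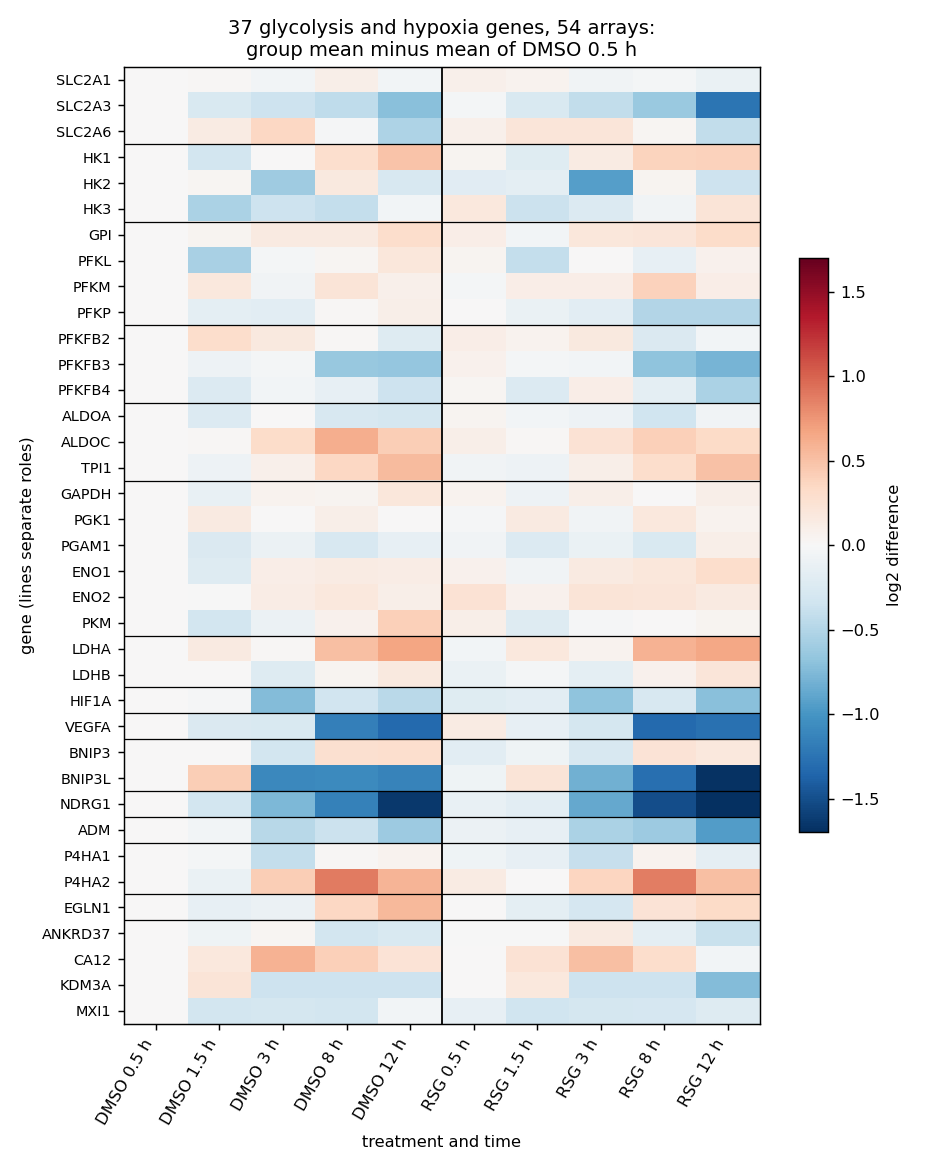
Mean log2 intensity of each of the 37 genes (rows, grouped by role) in each of the 10 groups (columns) minus the mean in DMSO at 0.5 h, over 54 arrays. Blue is lower and red is higher. NDRG1 and VEGFA darken to blue with time in DMSO and in RSG, and LDHA, TPI1 and P4HA2 turn red in both. BNIP3L is blue in both from 3 h on.

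Glucose transporters did not move as a group. SLC2A1 ran from 11.16 to 11.49 in DMSO at 0.5 h with a median of 11.42 and had 11.17, 11.24, 11.47 and 11.49 at 12 h, a difference of -0.04 (95% interval -0.22 to 0.13, adjusted p = 0.75). With RSG at 12 h it had 11.10, 11.19, 11.37 and 11.41. SLC2A3 went from 10.13 to 10.37 at 0.5 h, through 9.64 to 9.97 at 8 h, to the 12 h values given above. None of its arrays at 3, 8 or 12 h reached the range of 0.5 h. Its differences were -0.35, -0.44 and -0.72 (SE 0.11 for the last, adjusted p = 6.7e-07). SLC2A6, a transporter of lysosomal membranes that inflammatory stimuli induce, was 0.36 higher at 3 h and 0.53 lower at 12 h. With 59 arrays the 12 h difference turned to 0.44 (adjusted p = 0.53), and replicates 4 and 6, which stood apart, were the highest DMSO arrays of 12 h. With 54 the fall was not called without DMSO 12 h replicate 5 (-0.28, adjusted p = 0.0772), nor the rise without DMSO 0.5 h replicate 1 or DMSO 3 h replicate 2 or 3 (adjusted p = 0.114, 0.0676 and 0.0516).

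The hexokinases went separate ways. HK1, the constitutive enzyme of mitochondria, spanned 11.49 to 11.86 at 0.5 h and 12.02 to 12.25 at 12 h, with no overlap, a rise of 0.48 (SE 0.12, adjusted p = 0.0011). At 8 h it was 0.28 higher (adjusted p = 0.036), a call that held in 6 of 12 fits without 1 array. HK2 had a median of 7.99 (7.83 to 8.29) at 0.5 h, 7.40 (7.15 to 7.81) at 3 h and 8.30 (7.75 to 8.55) at 8 h. The dip at 3 h was called (-0.60, SE 0.20, adjusted p = 0.026), and 4 of 12 fits without 1 array lost it, with adjusted p of 0.0582 to 0.0613 when DMSO 0.5 h replicate 1 or 2 or DMSO 3 h replicate 4 or 5 was left out. At 12 h HK2 had 7.51, 7.68, 7.90 and 7.98 (difference -0.27, adjusted p = 0.37). The RSG arrays of 12 h had 6.99, 7.86, 7.87 and 8.01, around the same level but for 1 low array. HK3, a hexokinase of myeloid cells, was 0.54 lower at 1.5 h and 0.41 lower at 8 h, calls that held in 8 and 5 of 12 such fits.

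Among the enzymes of the upper pathway, TPI1 and ALDOC, an aldolase first known from brain, rose. TPI1 had a median of 11.65 (11.55 to 11.86) at 0.5 h, 12.06 (11.95 to 12.14) at 8 h, and 11.97, 12.02, 12.38 and 12.55 at 12 h. Its ranges at 8 and 12 h lay above that of 0.5 h. The rises were 0.36 (SE 0.08, adjusted p = 4.0e-04) and 0.54 (SE 0.09, adjusted p = 3.8e-06). ALDOC rose by 0.61 at 8 h (adjusted p = 2.9e-05) and 0.42 at 12 h, where the call was lost without DMSO 12 h replicate 1 (0.32, adjusted p = 0.0714). GPI, the glucose phosphate isomerase, rose by 0.30 at 12 h, a call lost without DMSO 12 h replicate 5 (0.21, adjusted p = 0.147). PFKL, the liver-type phosphofructokinase, was 0.55 lower at 1.5 h, a call lost without DMSO 1.5 h replicate 4 (-0.45, adjusted p = 0.054) and with 59 arrays (adjusted p = 0.18). With 59 arrays PFKL was instead called 0.53 higher at 12 h (adjusted p = 0.038), where 54 gave 0.19 (adjusted p = 0.31). PFKP itself did not move in DMSO, with differences of -0.19 to 0.10.

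PFKFB3, the PFKFB enzyme most devoted to making fructose 2,6-bisphosphate, fell. It had a median of 9.84 (9.73 to 9.99) at 0.5 h, 9.84 (9.62 to 9.95) at 3 h, 9.24 (8.94 to 9.46) at 8 h, and 8.98, 9.17, 9.29 and 9.36 at 12 h. The step came between 3 and 8 h, after which no DMSO array other than the 2 apart overlapped the 0.5 h range. The falls were -0.65 (SE 0.10, adjusted p = 9.1e-07) and -0.66 (SE 0.11, adjusted p = 5.1e-06). The RSG arrays at 12 h had 8.89, 8.96, 9.06 and 9.34. With 59 arrays the 12 h difference was -0.42 (adjusted p = 0.047). This call held in 3 of 12 fits without 1 array and under 5 of 12 alternative settings. The authors' scaled values and average normalization were among the settings that lost it. PFKFB4 had a median of 11.48 (11.26 to 11.80) at 0.5 h and 11.03, 11.04, 11.07 and 11.47 at 12 h. It was 0.35 lower (adjusted p = 0.017), and 6 of 10 fits without 1 array kept the call. The RSG arrays at 12 h had 10.75, 10.91, 11.08 and 11.13, overlapping those of DMSO.

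The lower pathway was mostly flat. Of GAPDH, PGK1, PGAM1, ENO1, ENO2 and PKM only PKM, the pyruvate kinase, was called, 0.41 higher at 12 h (SE 0.14, adjusted p = 0.016). Its other kept probes gave -0.31 and 0.02 in the same comparison, and neither passed, so the probes disagree on the direction. The call was lost without DMSO 12 h replicate 3 or 5 (adjusted p = 0.0506 and 0.0917). With 59 arrays PKM was 0.48 higher at 12 h, a call that all 12 fits without 1 array kept. ENO1 was called at 12 h with 59 arrays only, 0.19 higher, and 4 of 12 such fits kept that call. GAPDH, the usual reference gene, differed by -0.13 to 0.19 over the 4 comparisons. ENO2 was detected on 8 of the 59 arrays only.

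LDHA, the muscle-type lactate dehydrogenase, rose most clearly of the enzymes. Its median was 12.50 (12.48 to 12.81) at 0.5 h and 13.04 (12.94 to 13.30) at 8 h, and the 12 h arrays had 13.10, 13.25, 13.26 and 13.26. Both later ranges lay wholly above the first. The rises were 0.51 (SE 0.08, adjusted p = 2.0e-06) and 0.66 (SE 0.09, adjusted p = 8.1e-08), or 1.59-fold at 12 h. The RSG arrays of 12 h, at 13.03, 13.19, 13.31 and 13.32, lay in and around the DMSO range. LDHB, the heart-type subunit, differed by 0.05 and 0.16 and was not called.

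**Figure D4:**
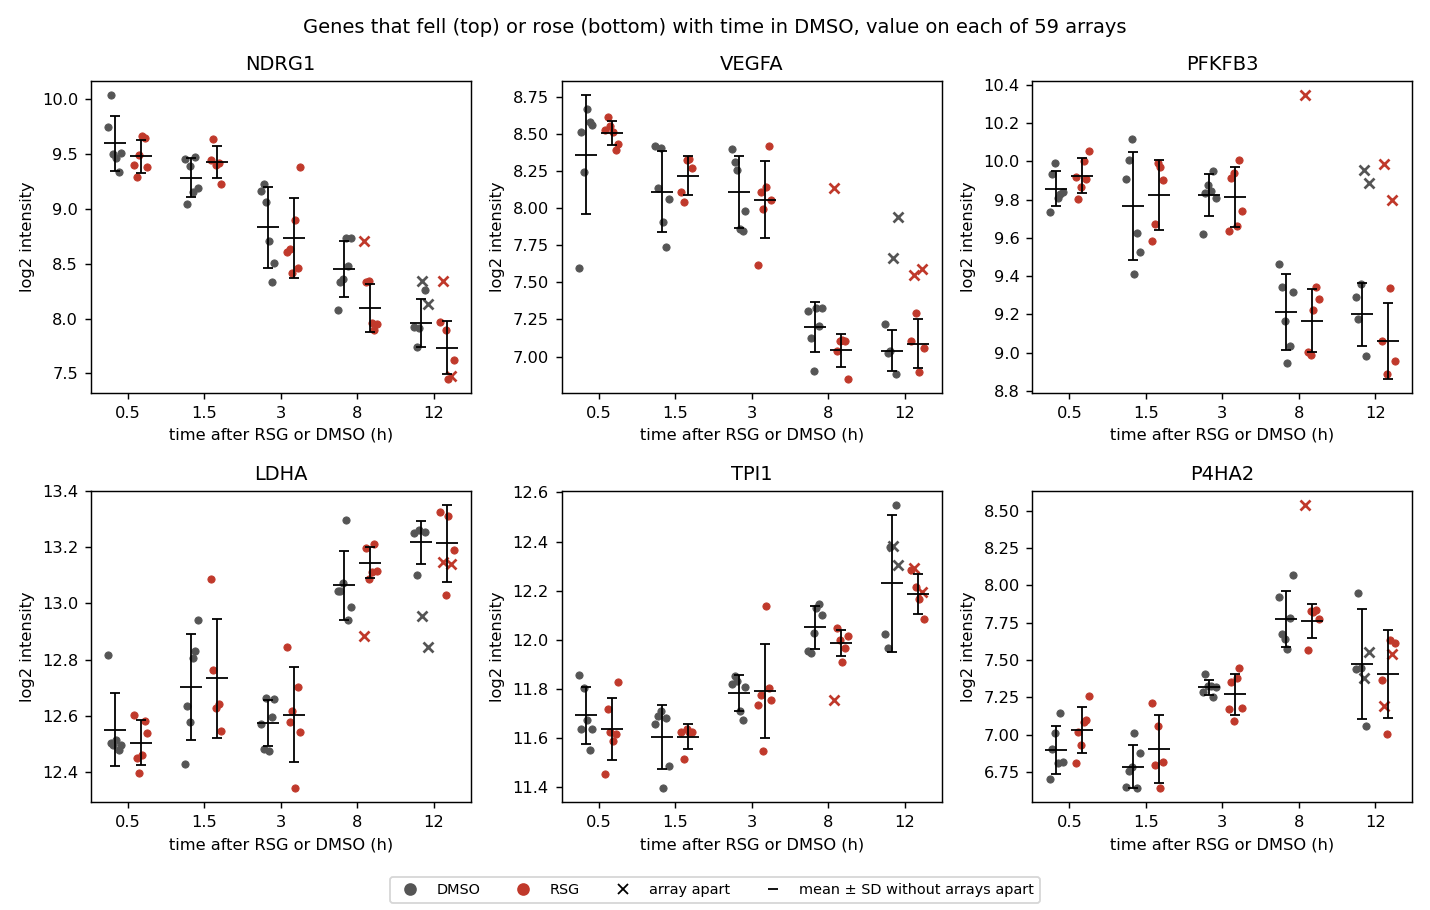
Log2 intensity (y axis) of 6 genes on each of the 59 arrays by hours after treatment (x axis), DMSO in grey and RSG in red. Crosses are the arrays apart and bars the mean ± SD of the others. NDRG1, VEGFA and PFKFB3 in the top row fall in DMSO by 8 h, and LDHA, TPI1 and P4HA2 in the bottom row rise, with the RSG arrays beside them.

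HIF1A, which encodes the oxygen-regulated subunit of HIF-1, had a median of 8.89 (8.55 to 9.15) at 0.5 h and 8.12 (7.92 to 8.31) at 3 h, ranges that did not overlap. It fell by 0.74 on the log2 scale (SE 0.16, adjusted p = 7.6e-04), and its other probe by 0.70. At 8 h the first probe gave -0.33 (adjusted p = 0.11) and the second -0.76 (adjusted p = 3.2e-04). At 12 h HIF1A had 8.10, 8.16, 8.45 and 8.91, 0.46 lower (adjusted p = 0.043), a call that 7 of 10 fits without 1 array lost, with differences of -0.63 to -0.36. EGLN1, which marks HIF-1α for destruction and is itself a HIF target, spanned 7.65 to 8.01 at 0.5 h and 8.32 to 8.59 at 12 h, a rise of 0.55 (SE 0.10, adjusted p = 2.1e-05). With 59 arrays this rise was 0.20 (adjusted p = 0.43).

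The secreted HIF targets fell. VEGFA, the main growth factor of blood vessels, had a median of 8.54 (7.60 to 8.67) at 0.5 h, 8.12 (7.84 to 8.40) at 3 h and 7.26 (6.90 to 7.33) at 8 h, and the 12 h arrays had 6.88, 7.03, 7.04 and 7.22. Even the low first replicate of 0.5 h, at 7.60, lay above all arrays of 8 h. The falls were -1.16 (SE 0.13, adjusted p = 1.5e-10) and -1.32 (SE 0.14, adjusted p = 7.7e-11), the last 2.50-fold. With RSG at 12 h VEGFA had 6.89, 7.06, 7.10 and 7.29, overlapping DMSO. The second VEGFA probe fell by 0.73 and 0.74. ADM fell by 0.47, 0.36 and 0.62 at 3, 8 and 12 h, from a median of 10.92 (10.67 to 11.29) to 10.21, 10.26, 10.34 and 10.57. The call at 8 h was lost without DMSO 0.5 h replicate 5 or 6 (-0.30 each, adjusted p = 0.0558 and 0.0597).

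NDRG1 showed the steadiest decline. Its median was 9.51 (9.34 to 10.04) at 0.5 h, 9.29 (9.05 to 9.48) at 1.5 h, 8.89 (8.33 to 9.22) at 3 h and 8.42 (8.08 to 8.73) at 8 h. At 12 h the arrays had 7.74, 7.92, 7.92 and 8.26. From 3 h on no array reached the 0.5 h range. The differences at 3, 8 and 12 h were -0.77, -1.15 and -1.64 (SE 0.16 for the last, adjusted p = 3.3e-12), the last 3.12-fold, and all fits without 1 array kept all 3 calls. With RSG NDRG1 had 7.45, 7.62, 7.90 and 7.97 at 12 h, which overlapped DMSO. BNIP3L, a mitophagy receptor, fell by 1.10, 1.08 and 1.14 at these times, from a median of 6.91 to 5.90, 5.77 and 5.80. At 1.5 h it had not fallen, with 6.41 to 7.72 beside 6.35 to 7.44 at 0.5 h. BNIP3L was detected on 5 of 6 arrays at 3 h and 3 of 4 at 12 h, so its level at those times lay near the detection limit. BNIP3, its close relative, differed by -0.31, 0.27 and 0.29 and was not called.

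The collagen prolyl hydroxylases, which need oxygen to stabilise the collagen helix, disagreed with each other. P4HA2 had a median of 6.86 (6.70 to 7.14) at 0.5 h, 7.32 (7.25 to 7.40) at 3 h and 7.73 (7.57 to 8.07) at 8 h, each range above the last. At 12 h it had 7.06, 7.44, 7.45 and 7.95. The rises were 0.42, 0.88 and 0.57 (SE 0.11, 0.11 and 0.12), with an adjusted p of 4.0e-09 at 8 h. Its second probe, detected on 41 of 59 arrays, gave -0.01, 0.02 and -0.25 and did not pass. P4HA1 was called at 3 h only, 0.40 lower, while its second probe fell at all 3 times (-0.53, -0.76 and -0.81).

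Of the remaining HIF targets, CA12, a carbonic anhydrase of the cell surface, rose by 0.59 at 3 h (adjusted p = 2.8e-04) and 0.41 at 8 h. ANKRD37 fell by 0.32 at 8 h (adjusted p = 0.034) and MXI1, an antagonist of MYC, by 0.32 (adjusted p = 0.045). These calls held in 4 and 5 of 12 fits without 1 array, and MXI1 was detected on 15 of 59 arrays. KDM3A was not called at any time, with -0.35 at 3, 8 and 12 h.

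The changes with time had the same sign in the RSG arm for the genes that moved most. NDRG1 stood 1.64 lower in DMSO and 1.75 lower in RSG at 12 h than at 0.5 h of the same treatment. VEGFA stood 1.32 and 1.42 lower, PFKFB3 0.66 and 0.86 lower, LDHA 0.66 and 0.71 higher and TPI1 0.54 and 0.55 higher. No interaction with treatment passed for these 5. SLC2A3 stood 0.72 lower in DMSO and 1.21 lower in RSG (interaction adjusted p = 0.74).

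Other genes of the same pathways, taken from 2 further lists, moved in both directions too. Of 36 other genes of glucose metabolism 28 were measured, and 9 rose and 2 fell in DMSO by 8 h and 11 and 5 by 12 h, or 39.3% and 57.1% of the list, beside 36.5% and 37.4% of all genes. PGM1, which links glycogen to glycolysis, rose by 1.27 and 1.49 and the glycogen synthase GYS1 by 0.32 and 0.75. TIGAR, a phosphatase that lowers fructose 2,6-bisphosphate, fell by 0.50 and 0.51. With RSG only PGM1 was called, 0.43 higher at 12 h (adjusted p = 0.046).

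Of 44 other hypoxia genes 36 were measured, and 11 rose and 5 fell by 8 h and 9 and 6 by 12 h in DMSO. These are 44.4% and 41.7% of the list, beside 36.5% and 37.4% of all genes. EPAS1, which encodes HIF-2α, rose by 0.79 and 1.42, and PLOD2, a collagen lysyl hydroxylase, by 1.16 and 1.50. BHLHE40, a repressor induced by HIF-1, had -2.16 and -2.26. With RSG, 3 genes of this list were called at both 8 and 12 h, or 8.33% beside 1.15% and 1.82% of all genes. The list was chosen with earlier results of these data known, so its share is a description only. CITED2, which competes with HIF-1 for its coactivator p300, was 0.41 and 0.62 lower (adjusted p = 0.048 and 0.0025). DDIT4, an inhibitor of mTORC1, was 0.52 and 0.71 lower (adjusted p = 0.049 and 0.0096), and TMEM45A, a membrane protein, was 0.58 and 0.56 higher. None of these 3 genes, nor PGM1, was called with RSG in the fit of 59 arrays.

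The 5 arrays apart differed in some of these genes, as they did across the whole array. Against the 19 other arrays of 8 and 12 h, 6 of the 37 members lay above on all 5 and 6 lay below on all 5, or 16.2% each way, where 10.3% and 14.5% of all genes did. SLC2A6 had 12.01 to 13.49 on the 5 arrays against 8.61 to 10.23 on the 19. ANKRD37 had 7.01 to 7.62 against 5.44 to 6.11, and PFKL, PFKFB3, HIF1A and VEGFA were also above. SLC2A3 had 7.13 to 7.83 against 8.90 to 10.09, PFKP 7.76 to 8.38 against 9.89 to 11.04, and HK3 4.31 to 4.69 against 6.46 to 7.69. ALDOC, BNIP3 and EGLN1 were below too. These arrays came from both treatments, and their sets were defined from the data, so no test is given. Beside this, their mean dendritic cell markers were high, as given above, and their macrophage markers were 10.76 to 11.03. The part of either in these differences was not tested.

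**Figure D5:**
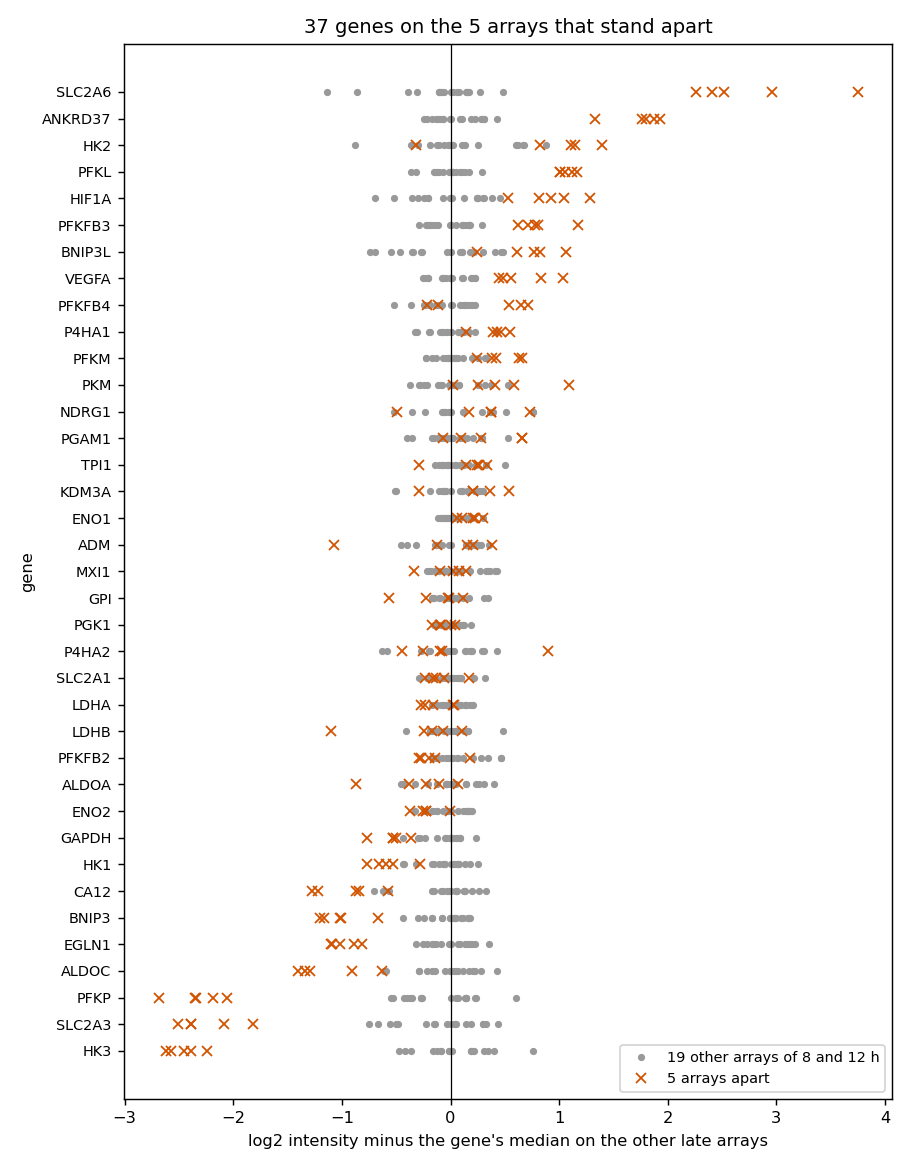
Log2 intensity on each array of 8 and 12 h minus the gene's median on the 19 arrays that do not stand apart (x axis), for each of the 37 genes (y axis). Crosses are the 5 arrays apart and grey points the 19 others. SLC2A6 and ANKRD37 lie at the top with median shifts of 2.52 and 1.80, and PFKP, SLC2A3 and HK3 at the bottom with -2.35, -2.39 and -2.45.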

How the data were processed

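Of the deposited tables, 1 gives each probe's mean bead intensity, which the authors had neither background-subtracted nor scaled, and a detection p-value from the negative control beads of the array. A second deposited table holds the authors' intensity after average normalization in BeadStudio. Of 24531 probes, 24526 are in both tables. The number of arrays limits the precision.

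Background was removed by neqc (limma 3.58.1, R 4.3.3), which reads the negative controls from detection p-values, adds an offset of 16, applies quantile normalization and takes log2. Symbols came from the platform annotation, updated by gene ID. The limma model had 1 mean per group, two-sided tests were adjusted by Benjamini-Hochberg over 11515 genes per comparison, and 0.05 was the threshold. The interaction was a moderated F over the 5 times. On simulated data for RSG against DMSO at 12 h with 54 arrays and 11515 genes, 96% of log2 changes of 1 and 44% of 0.5 were found. With 59 arrays these were 83% and 33%. The simulated noise was independent between genes and arrays, unlike the replicate sets described below, so these shares need not hold for the real arrays.

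The members and lists were chosen with earlier results of these data known. Per-array values were given for HK2, PFKFB3, PFKFB4, SLC2A1, SLC2A3, LDHA, HIF1A, VEGFA, ADM, NDRG1 and members called with RSG. TPI1, P4HA2 and BNIP3L were added after their values had been seen, and other genes are given by group ranges. Genes of the 2 other lists were named only if called at 8 or 12 h, up to 6 per list. Samples were grouped by the labels and not paired: the residuals of same-numbered RSG and DMSO arrays correlated on average at -0.364, -0.265, -0.197, -0.295 and -0.297 for the 5 times in order. Alternatives covered background correction, normalization, probe filter, choice of probe, blocks, array weights, the variance prior, the arrays fitted and each array left out.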

Additional observations from a re-analysis of the deposited data

Results flagged for a closer look

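A single array far from the rest of its group was looked for in 11 genes and 10 groups over all 59 arrays, by Dixon's test at its 95% critical value. It was found in 10 of the 110 groups, where chance gives about 5.5, and 6 of the 10 were arrays that stand apart. RSG 8 h replicate 1 was one of these for 5 genes, with log2 levels of 10.34 for PFKFB3, 7.83 for SLC2A3, 12.88 for LDHA, 8.14 for VEGFA and 8.38 for PFKP. RSG 12 h replicate 2 was another, at 11.92 for PFKFB4. Of the other 4, DMSO 0.5 h replicate 1 had 11.16 for SLC2A1, below the others at 11.39 to 11.49, and 12.81 for LDHA, above the others at 12.48 to 12.51. DMSO 8 h replicate 4 had 13.3 for LDHA, and RSG 1.5 h replicate 3 had 10.6 for PFKP.

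The RSG effect on PFKP differed between times with 54 arrays, by the interaction of treatment with time (adjusted p = 0.000436 in limma). It was near 0 up to 3 h and -0.52 and -0.60 at 8 and 12 h.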

How the results depend on the processing

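No member was called for RSG at 0.5, 1.5 or 3 h under any alternative run. For RSG at 8 h with 59 arrays, array weights gave 1 call (PFKP, adjusted p = 0.0042) in place of 0. For RSG at 12 h with 54 arrays, a fit of only the 2 groups gave 0 calls in place of 2. For DMSO with 59 arrays, array weights gave 6, 13 and 16 calls at 1.5, 3 and 8 h and a fit of only the 2 groups gave 1, 13 and 20. At 1.5 h with 54 arrays the count of 2 became 6 with array weights and with the side of the first residual component as a block, and 1 with the mean of a gene's probes and with only the 2 groups. Leaving out each array in turn gave 0 to 1, 4 to 7, 8 to 9 and 9 to 14 calls at 1.5, 3, 8 and 12 h with 59 arrays, and 0 to 5, 9 to 12, 12 to 16 and 13 to 18 with 54. For RSG it gave 0 with 59 arrays, and 1 and 1 to 3 at 8 and 12 h with 54, and the interaction kept 1. Of the 46 calls in DMSO with 54 arrays, 30 held in all these fits. Shares of all genes called were not counted under these alternatives or under the replicate block below. Whether the member counts moved with the whole array was therefore not tested.

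With the replicate block the counts in DMSO at 1.5, 3, 8 and 12 h were 0, 6, 8 and 9 with 59 arrays and 2, 10, 15 and 17 with 54, and no RSG call changed. The numbers are not a pairing in the labels, and same-numbered arrays did not deviate together. Same-numbered arrays of the 2 treatments mostly lay on opposite sides of the first residual component described below. At 0.5 h, DMSO replicates 1 to 3 lay on its high side and RSG replicates 1 to 3 on its low side. A block by number therefore pools opposite sets and cannot remove this split.

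Between the fits of 59 and 54 arrays, SLC2A6 in DMSO at 12 h turned from 0.44 (not called) to -0.53 (called). Within either fit, called directions were reversed only by another probe of the gene: PFKL at 1.5 h (0.10), P4HA2 at 3 and 12 h (-0.014 and -0.25) and PKM at 12 h (-0.31, and -0.15 with 59 arrays). The cause was not tested. BNIP3L, CA12, ENO2, MXI1, PFKFB2, PFKM and HK3 were not detected on all arrays, which limits their values.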

Other observations

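Replicates 1 to 3 and 4 to 6 of a group often formed separate sets. The first principal component of the residuals over all genes, with 54 arrays, put DMSO replicates 1 to 3 and 4 to 6 on opposite sides at each of the 5 times, and its high side held replicates 1 to 3 at 0.5 and 3 h and 4 to 6 at 1.5, 8 and 12 h, the last with replicate 5 alone. Members differed in how they lay to it. NDRG1 was higher on the high side without overlap in 7 of the 10 groups and HK2 in 6, with differences of up to 0.64 and 0.89 on the log2 scale, and BNIP3 was lower in 6. SLC2A1 was higher without overlap in 4 groups and lower in 3. The same count over all genes was not made, so these counts describe single genes only. A side held as few as 1 array, and the sides were defined from the data, members included. Within the high and the low side the RSG difference of PFKP was -0.53 and -0.52 at 8 h, and -0.92 (1 DMSO array) and -0.55 at 12 h. For SLC2A3 at 12 h it was -0.21 and -0.57.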
